A study of Danio rerio with 26 samples.

Results

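The brains of female and male zebrafish that had been withdrawn from chronic alcohol were compared by RNA sequencing. The comparison rests on 5 of the 26 libraries of the study, 2 from females and 3 from males, within a set of 14 brain libraries. Transcripts with at least 1 TPM (a relative abundance, scaled so that the transcripts of every library sum to the same total) in at least 2 of these 5 libraries were kept, which left 29305 of the 57918 transcripts listed. Just outside this limit, 2934 transcripts reached 1 TPM in exactly 1 of the 5 libraries, with a median of their mean levels of 0.592 TPM. Just inside it, 2764 transcripts reached 1 TPM in exactly 2 libraries, with a median of 0.972 TPM.

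All fish were short-fin zebrafish of the AB strain, housed by sex at 28 °C on a cycle of 14 h light and 10 h dark. The withdrawal groups (2 female and 3 male brain libraries) had been taken off ethanol, but neither the length of withdrawal nor the number of fish is given in the sources used here. The alcohol groups (2 female and 2 male libraries) had lived for 9 weeks in 0.5% ethanol that was renewed every day. The control groups (3 female and 2 male libraries) had been moved between tanks in the same way with no ethanol, and the labels give 30 fish per tank for the control and alcohol groups. Per the labels' protocols, fish of these groups were also paired for spawning in the second part of the exposure, and whether the withdrawal fish were bred is not stated. Each library was made from tissue pooled within its group, and whether replicate libraries hold different fish is not stated. Each p-value thus reflects the spread between libraries alone, which may be technical.

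Male and female vertebrate brains differ in gene activity under the influence of gonadal hormones, and the zebrafish brain is known for its high production of oestrogen by glial aromatase. Laboratory strains such as AB are known to lack the sex chromosome signal of wild zebrafish, so sex in them depends on many loci and on rearing. In the brain, long exposure to ethanol is known to shift the balance between inhibitory and excitatory transmission, and taking ethanol away exposes that shift. The tables list Ensembl transcripts without gene names, and the reference tables used here did not pair them with genes. Brain, liver and gonad marker genes could therefore not be looked up, and transcripts are described by their levels across sex, exposure and tissue. A bulk library also cannot tell fewer cells of a type from less RNA per cell.

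The libraries of the withdrawal groups stood closer to the opposite sex of the controls than to each other. Over the tested transcripts, Spearman correlations of TPM were 0.733 to 0.812 between withdrawal female and withdrawal male libraries, against 0.893 to 0.923 between the sexes under alcohol and 0.827 to 0.877 in controls. Withdrawal female libraries correlated at 0.855 to 0.903 with control male libraries, and at 0.833 to 0.888 with control female libraries. Withdrawal male libraries correlated at 0.890 to 0.916 with control female libraries, and at 0.763 to 0.826 with control male libraries. Within the withdrawal groups the value was 0.942 for the female pair and 0.956 to 0.968 for the 3 male pairs. These are descriptions, since the libraries share 1 annotation and their depths are unknown.

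The sex labels of the withdrawal libraries were checked on transcripts whose sexes did not overlap in controls and under alcohol, in the same direction, so that the withdrawal libraries took no part in choosing them. Of 2081 tested female-high transcripts, 577 (27.7%) were called higher in withdrawal females and 625 (30.0%) lower, against 26.8% and 25.4% of all tested transcripts. Of 2087 tested male-high transcripts, 109 (5.22%) were called lower in withdrawal females and 780 (37.4%) higher. Over both lists 686 transcripts were called in the same direction as in the other exposures. The whole female-high list was thus called higher about as often as all tested transcripts. The whole male-high list was more often called against the labels than with them. Of 150 female-high transcripts at 4-fold or more in both other exposures, 141 were called higher in withdrawal females and 7 lower. Of 5 such male-high transcripts, 0 were called lower and 3 higher. How many of the 150 passed the level filter through females alone is not given here. In the female-restricted list described below, 100 of the 109 that passed were under 1 TPM in every withdrawal male library. The 141 calls are therefore not counted as support for the labels.

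The sexes differed in many brain transcripts after withdrawal. A limma fit over the 14 brain libraries, with 6 group means, called 15295 of 29305 transcripts at a Benjamini-Hochberg adjusted p below 0.05, which is 52.2%. Of these, 7853 were higher in females (26.8%) and 7442 were lower (25.4%). A change of 2-fold or more was called upward in 3035 transcripts (10.4%) and downward in 3267 (11.1%). The same fit called 2061 transcripts between alcohol females and alcohol males (7.03%), and 13412 between control females and control males (45.8%). The median size of the sex difference over all tested transcripts was 0.54 on the log2 scale after withdrawal, 0.23 under alcohol and 0.47 in controls. Tested transcripts were chosen on the withdrawal libraries alone. The alcohol libraries also held less of their TPM in their most abundant transcripts, as given below. Whether either point lowered the alcohol values was not tested. The withdrawal count was 10045 without the first withdrawal female library, and at most 14621 with any 1 withdrawal library left out. The split between higher and lower depended on how libraries were scaled: with TPM as deposited, 3368 transcripts were called higher and 12545 lower, and the median difference over all transcripts was −0.39 (log2), against 0.00 with the median-of-ratios rescaling used here.

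The sex difference after withdrawal ran largely opposite to that in controls. The 2 comparisons share no library, although they share the fitted spread and the rescaling. In the interaction contrast of the limma fit, the sex difference after withdrawal differed from that in controls for 18332 transcripts (62.6%), 9379 with a higher value after withdrawal (32.0%) and 8953 with a lower one (30.6%). With TPM as deposited the same contrast called 3729 with a higher and 14330 with a lower value. Of the transcripts called in both comparisons, 8433 had opposite directions and 821 had the same direction. The opposite calls made up 55.1% of the withdrawal calls and 62.9% of the control calls. They comprised 4170 transcripts that were higher in females after withdrawal and lower in females in controls, and 4263 with the reverse pattern. Over all tested transcripts, 74.7% had opposite signs in the 2 comparisons, and Pearson's r between the differences across transcripts was −0.39. It was −0.54 without the 109 tested transcripts restricted to females that are described below. Without the first withdrawal female library r was −0.29, and without the second it was −0.45.

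**Figure D1:**
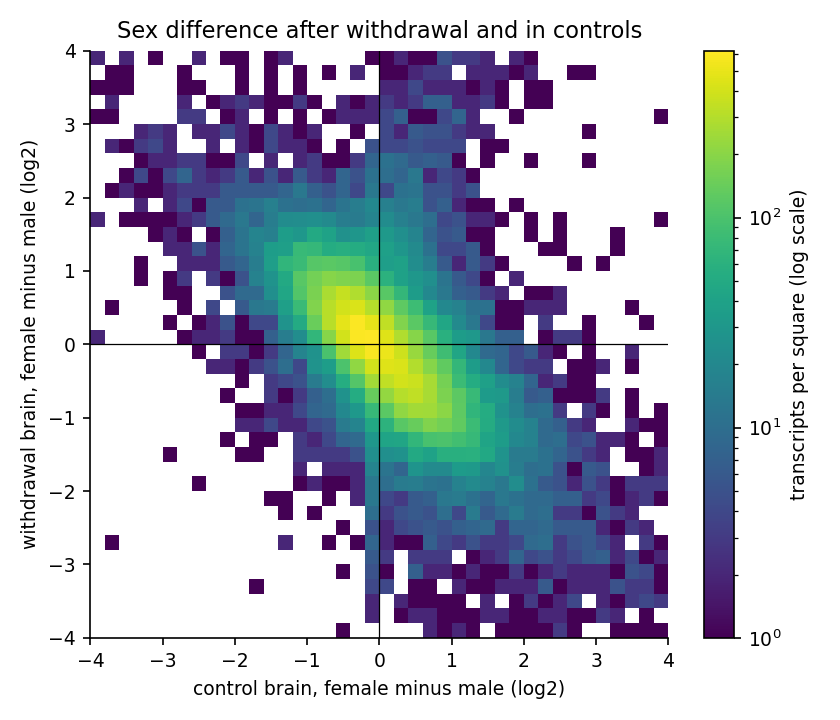
Number of transcripts (colour, log scale) by female minus male log2 difference in control brain (horizontal axis) and in withdrawal brain (vertical axis), in squares of 0.2 log2 units. The cloud runs from upper left to lower right, with 74.7% of transcripts at opposite signs, and a thinner column at the top right holds transcripts higher in females in both; 446 of the 29305 transcripts lie outside the plotted range.

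Against alcohol brains the sex difference after withdrawal changed for fewer transcripts. The interaction contrast of the limma fit called 7584 transcripts (25.9%). Of the transcripts called in both, 1150 had the same direction and 260 had opposite directions, which are 7.52% and 1.70% of the withdrawal calls and 55.8% and 12.6% of the alcohol calls. Pearson's r across transcripts between the sex differences after withdrawal and under alcohol was 0.46, and 0.37 without the same 109 transcripts. The interaction count fell to 4478 without the first withdrawal female library, and to 4455 and 4621 without the first or the second alcohol female library. Of the 29305 tested transcripts, 367 were called higher in females in all 3 exposures and 20 were called lower. The 367 include transcripts of the female-restricted list, which was chosen as higher in control and alcohol females. How many they are is not given here, so the 367 and the 20 are not weighed against each other.

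A group of transcripts restricted to females was higher in withdrawal females than in withdrawal males, with 3 exceptions. They were chosen in the control and alcohol brains only, at no more than 1 TPM in all 4 male libraries and at least 3 TPM in all 5 female libraries, as deposited. This gave 115 transcripts, and the mirror rule gave 1 male-restricted transcript. Both withdrawal female libraries lay above all 3 withdrawal male libraries for 112 of the 115, against a background of 35.5% of all tested transcripts. For the other 3, all 3 male libraries lay above both female libraries. The level filter was passed by 109, of which 100 were under 1 TPM in every withdrawal male library, so calls among them are not counted. The sum of the 115 was 18618 and 27384.5 TPM in withdrawal female libraries, against 33.3, 62.0 and 83.0 TPM in withdrawal male libraries. The female sums were 1.86% and 2.74% of all TPM. In the other exposures the sum was 4517 and 4278 TPM in alcohol females against 14.2 and 14.5 TPM in alcohol males, and 2125, 2401 and 3072 TPM in control females against 5.85 and 11.9 TPM in control males. After withdrawal the groups did not overlap, and the withdrawal female libraries lay above every other brain library. In controls and under alcohol the gap between the sexes followed from the rule that chose the list.

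The female-restricted transcripts split by their level in the liver, which took no part in choosing them. In 105 transcripts no female liver library exceeded 295 TPM, and in the other 10 the highest female liver library reached at least 1612 TPM, so a limit of 500 TPM separated them. For the 105 transcripts low in liver, rescaled TPM in withdrawal female brains had a median ratio of 11.9 to control female brains, ranging between 0.126 and 38.6. In 103 of the 105, both withdrawal female libraries lay above every control female library, against 27.6% of all tested transcripts. In 103 they lay above both alcohol female libraries, against 39.5% of all tested. Most were higher in the second withdrawal female library than in the first. In TPM as deposited, the second withdrawal female library was 1.38 times the first at the median. It was 1.18 to 1.67 times the first between the 5th and 95th percentiles. The same ratio over all tested transcripts is not given here. In withdrawal males most of these transcripts were low, with a median of 0.0960 rescaled TPM (the middle of the 3 library medians), and 98 of the 105 were at most 1 TPM in all 3 libraries. In an exception, singled out after its values were seen, withdrawal females had 0.63 and 2.14 rescaled TPM and withdrawal males 11.3, 43.9 and 58.9. This transcript held 55.7 of the 83.0 TPM, as deposited, that the list summed to in the third withdrawal male library.

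The 10 transcripts abundant in female liver went the other way in the female brain. Their sum was 28.4 and 9.87 TPM in withdrawal female brains, against 5.10, 4.66 and 5.16 TPM in withdrawal male brains. In alcohol female brains it was 211 and 197 TPM, and in control female brains 647, 489 and 649 TPM. Rescaled TPM in withdrawal female brains was 0.0325 times that of control female brains at the median, and 9 of the 10 lay below every control female library, against 26.3% of all tested transcripts. Both withdrawal female libraries lay above all withdrawal male libraries for 8 of the 10, and below them for 2, against 35.5% and 34.9% of all tested transcripts. The level filter was passed by 4 of the 10, in each case through 1 sex, so no calls are counted. The shares of tested transcripts thus come from an unlike set.

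**Figure D2:**
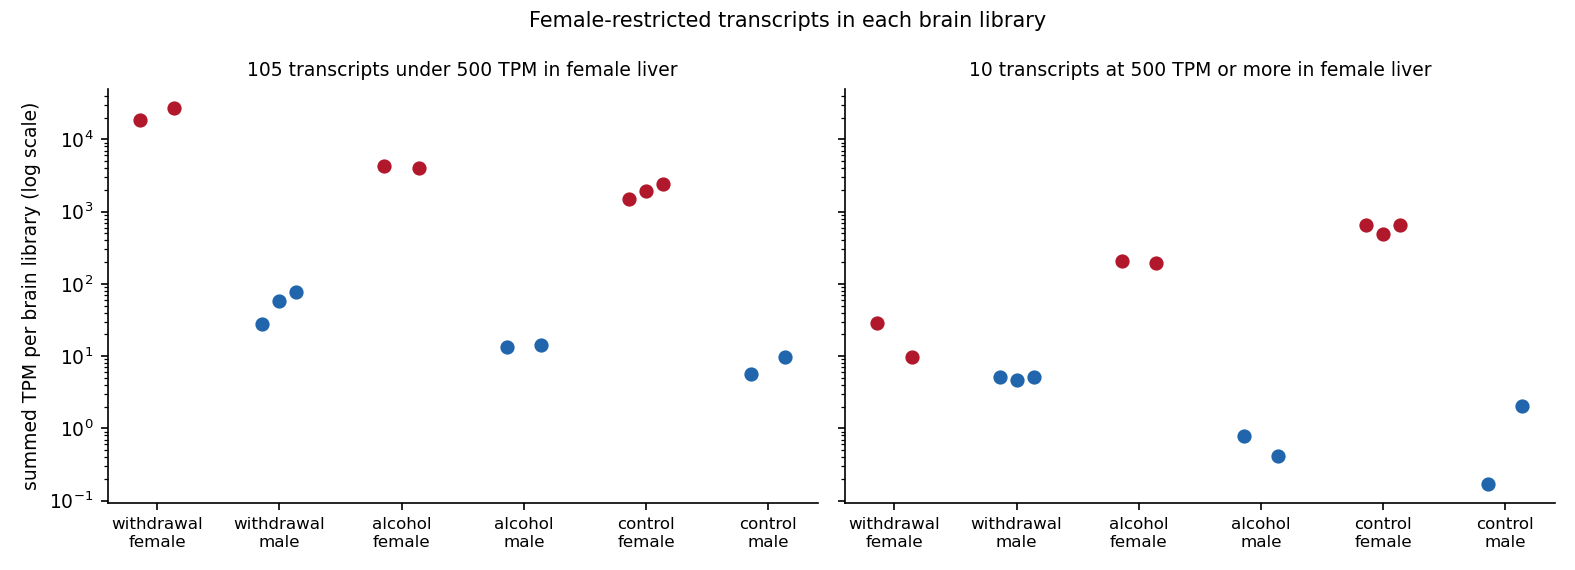
Summed TPM, as deposited, of the female-restricted transcripts in each of the 14 brain libraries (points; red female, blue male; log scale), for the 105 transcripts under 500 TPM in female liver (left) and the 10 at 500 TPM or more (right). On the left the withdrawal female libraries, at 18589 and 27375 TPM, are the highest; on the right they lie at 28.4 and 9.87 TPM, below all alcohol and control female libraries.

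In the liver of the same groups, most of the 105 transcripts were lower after withdrawal and the 10 were mixed. The 105 transcripts summed to 94.8 and 102 TPM in withdrawal female liver, 4166 and 4565 TPM in alcohol female liver, and 3816 and 3445 TPM in control female liver, and the highest male liver library had 10.6 TPM. Both withdrawal female liver libraries lay below both control female liver libraries for 103 of the 105 and above them for 1. The 10 transcripts summed to 153609 and 156639 TPM in withdrawal female liver, 63600 and 65328 TPM in alcohol female liver, and 68493 and 85667 TPM in control female liver. For 6 of the 10 both withdrawal female liver libraries lay above both controls, and for 3 they lay below. The same shares over all liver transcripts are not given here. Liver TPM was not rescaled, and the 10 held 15.4% and 15.7% of it in withdrawal female liver. Whether these liver libraries shifted as a whole was not tested. Brain and liver tables were deposited separately, so these levels are set side by side without a test.

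**Figure D3:**
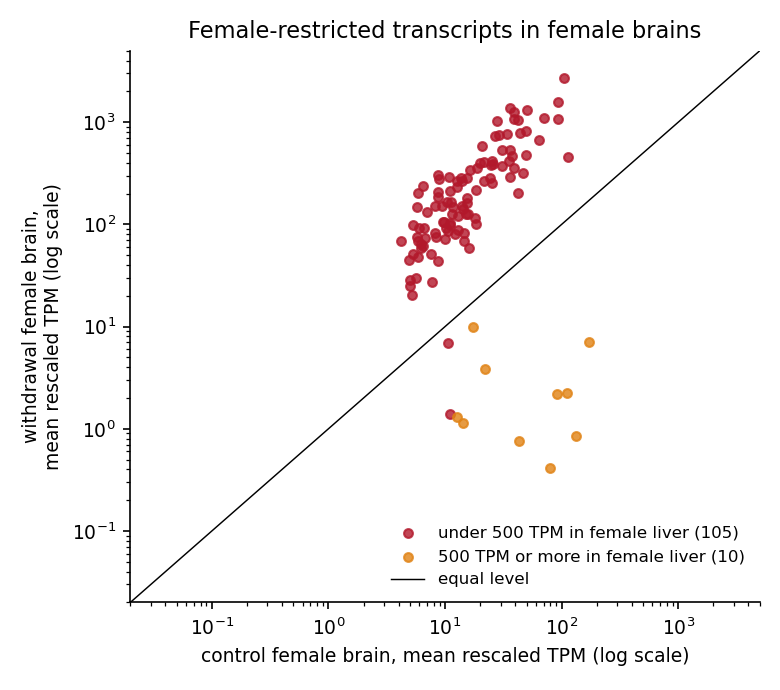
Mean rescaled TPM in withdrawal female brains (vertical axis, 2 libraries) and control female brains (horizontal axis, 3 libraries) for each of the 115 female-restricted transcripts, both on log scales, with a line at equal levels. Of the 105 transcripts low in liver (red), 103 had both withdrawal female libraries above all control female libraries; 9 of the 10 abundant in liver (orange) had both below.

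Levels of other liver transcripts were low or mixed in the withdrawal brains. A list of 5 transcripts with at least 100 TPM in all 12 liver libraries and under 1 TPM in every control brain summed to 0.32 and 0.15 TPM in withdrawal female brains, against 3.78, 3.08 and 3.98 TPM in withdrawal male brains. In each withdrawal female library 3 of the 5 were listed at 0, and in the withdrawal male libraries none was. A list of 52 transcripts at 100 TPM or more in control female liver and at least 20 times the control male liver summed to 5831 and 9329 TPM in withdrawal female brains, against 3369, 2753 and 3280 TPM in withdrawal male brains. The same sum was 6777, 3305 and 6075 TPM in control female brains, against 451 and 335 TPM in control male brains. Under alcohol it was 1762 and 1819 TPM in female brains, against 657 and 1110 TPM in male brains. Both withdrawal female libraries lay above all 3 male libraries for 19 of the 52, and all 3 male libraries lay above both female libraries for 14, against 35.5% and 34.9% of all tested transcripts. Only 31 of the 52 passed the level filter, so these shares come from an unlike set. In the withdrawal female sum 1 transcript held 30.8%. The list shares 13 members with the female-restricted list, and the part of liver RNA in the sex difference was not tested.

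The largest difference in log2(TPM + 1) among the transcripts singled out was in a female-restricted transcript, ENSDART00000147197.1. It had 2019 and 3351 rescaled TPM in withdrawal female brains, against 0.45, 0.50 and 1.02 in withdrawal male brains. In alcohol females it had 66.3 and 68.5, against 0.12 and 0.24 in alcohol males, and in control females 102, 116 and 97.2, against 0 and 0.60 in control males. The sexes were apart in every exposure, in controls and under alcohol by the rule of the list, and withdrawal females lay furthest above. The log2 difference in TPM + 1 was 10.63 after withdrawal (SE 0.24, limma adjusted p 2.22e-10), on a scale that understates changes of transcripts near 0. With a pseudocount of 0.1 it was 11.82, and another female-restricted transcript came first at 12.93. ENSDART00000147197.1 was picked by its difference after withdrawal and passed the level filter through females alone, so its p-value is not separate support. In female liver it had 0.89 and 3.41 TPM after withdrawal, 158 and 153 TPM under alcohol, and 175 and 151 TPM in controls.

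A second transcript of the same pattern had 2767 and 4291 rescaled TPM in withdrawal female brains, against 1.02, 1.71 and 3.09 in withdrawal male brains. Its log2 difference was 10.25 (SE 0.29, limma adjusted p 9.89e-10), with 5.34 in controls and 4.47 under alcohol. It was left out of the female-restricted list because its male levels passed 1 TPM.

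The largest difference in the other direction among them was in ENSDART00000149844.1. It was listed at 0 in both withdrawal female libraries and had 700, 458 and 624 rescaled TPM in withdrawal male libraries. In alcohol brains it was listed at 0 in both female libraries and had 1.46 and 137 in the male libraries. In control brains it had 909, 442 and 627 in females and was listed at 0 in both males. Limma called it lower in withdrawal females (adjusted p 0.000128) and higher in control females (adjusted p 0.000177), so its direction was opposite in the 2 exposures. No fold is given, because whole groups were listed at 0. The transcript was picked by its difference and passed the level filter through males alone, so the withdrawal p-value is not separate support.

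A further lower transcript had 0.82 and 0 rescaled TPM in withdrawal females, against 216, 128 and 196 in withdrawal males. In controls the order was the reverse, with 141, 70.3 and 158 in females and 3.29 and 1.88 in males. Its log2 difference was −7.04 after withdrawal (SE 0.45, limma adjusted p 9.24e-07) and 5.06 in controls. Conversely, 1 transcript had 319 and 26.1 rescaled TPM in withdrawal females, against 0.64, 0 and 0 in withdrawal males, while control females had 0.83, 0 and 0.69 and control males 326 and 536. Its log2 difference was 6.30 after withdrawal (SE 0.83, limma adjusted p 0.000150) and −8.17 in controls. The 2 withdrawal female libraries differed widely for this transcript, and the difference was 4.57 without the first of them. Both transcripts were picked by their differences and passed the level filter through 1 sex alone, so these p-values are not separate support.

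Values of exactly 0 in withdrawal females were mostly shared with control males, and those in withdrawal males were also mostly shared with control males. A transcript listed at 0 can reflect how reads were shared between similar transcripts, so these counts describe the tables. At 0 in both withdrawal female libraries and at 5 TPM or more in all 3 male libraries were 106 transcripts, of which 83 were also at 0 in both control male libraries and 11 in all 3 control female libraries. At 0 in all 3 withdrawal male libraries and at 5 TPM or more in both female libraries were 93 transcripts. Of these, 55 were also at 0 in both control male libraries, 6 in all 3 control female libraries, and 19 were female-restricted, thus chosen as low in control males. Of all 57918 transcripts, 18055 and 19251 were at 0 in the control male libraries, and 17797 to 18722 in each control female library. The share of all transcripts at 0 in every library of a control group is not given here. The total of 199 transcripts at 0 in one withdrawal sex was 439 without the second withdrawal female library.

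The 4 groups of withdrawal and control brains can be paired in 3 ways. With zeros in one pair and at least 1 TPM in every library of the other, 74 transcripts were listed at 0 in withdrawal females and control males, and 9 in withdrawal males and control females. Pairing by sex gave 24 transcripts at 0 in both male groups and 0 transcripts at 0 in both female groups. Pairing by exposure gave 0 in either direction. Of the 74, 57 reached 1 TPM in some liver library, and in control male liver 50 and 54 of these were at 0, against 2 to 7 in each of the control female libraries and 1 to 5 in each library of the withdrawal and alcohol livers. In alcohol brains, 48 and 47 of the 74 were at 0 in the female libraries, and 45 and 21 in the male libraries. The labels name no batch, and whether library handling took part in this pattern was not tested.

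Transcript abundance and the sex difference were related after withdrawal. With the median-of-ratios rescaling, the median log2 difference between females and males was −0.11 for 11538 transcripts with a mean of 1 to 5 TPM over the 5 withdrawal libraries, −0.02 for 9908 at 5 to 20 TPM, 0.18 for 4861 at 20 to 100 TPM, 0.29 for 761 at 100 to 300 TPM, 0.53 for 286 at 300 to 1000 TPM and 0.69 for 98 above 1000 TPM. Among those above 1000 TPM, 52 were called higher in females and 11 lower, and at 1 to 5 TPM 2135 were called higher and 2893 lower. In controls the medians ran the other way, at 0.17 for 1 to 5 TPM and −0.52 above 1000 TPM, and under alcohol they were −0.03 and −0.08. With TPM as deposited the withdrawal medians were −0.42 for 1 to 5 TPM and 0.20 above 1000 TPM. Quantile normalisation, which gives every library the same distribution, left −0.04 and −0.06 after withdrawal, and −0.05 and 0.02 in controls. It evens out differences between abundance classes by design, so these values do not test the relation.

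**Figure D4:**
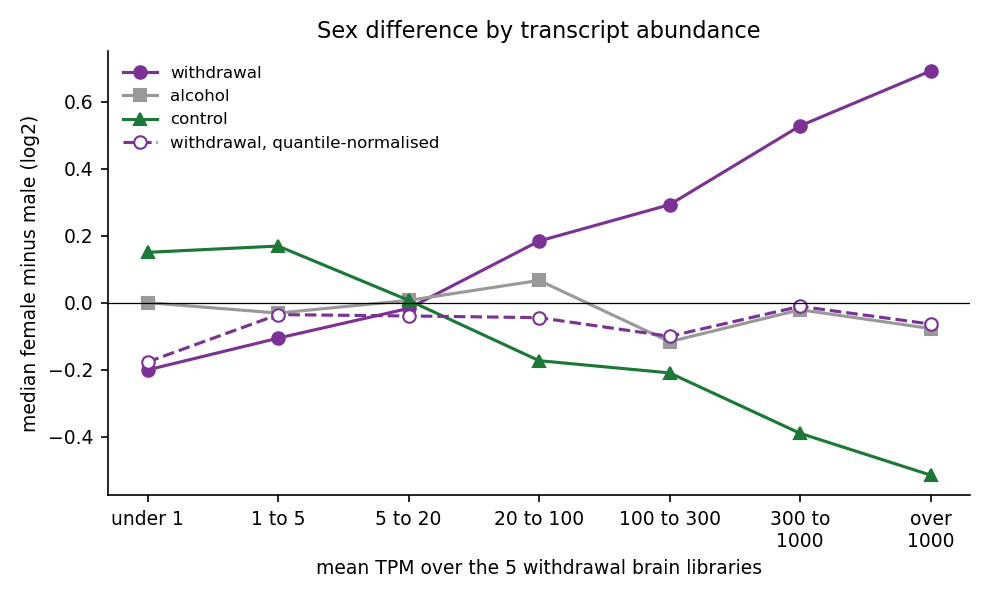
Median female minus male log2 difference (vertical axis) in classes of mean TPM over the 5 withdrawal libraries (horizontal axis), for withdrawal (circles), alcohol (squares) and control (triangles) brains after median-of-ratios rescaling, and for withdrawal after quantile normalisation (open circles, dashed). The withdrawal medians climb to 0.69 and the control medians fall to −0.52 in the top class, while the quantile-normalised withdrawal medians lie between −0.18 and −0.01.

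The same contrast appeared in a measure that needs no rescaling. The 1000 most abundant transcripts of each library held 70.13% and 69.0% of TPM in withdrawal females, against 61.5%, 64.1% and 61.3% in withdrawal males. The means were 69.5% ± 0.825 in females (SD, n = 2) and 62.3% ± 1.55 in males (SD, n = 3), and the groups did not overlap. The difference of 7.25 percentage points had a two-sided exact permutation p of 0.1, the smallest that 2 against 3 libraries allow. In controls the difference between females and males was −6.92 points, and under alcohol −1.64 points. The share itself was 40.7% to 48.1% in alcohol libraries, against 61.5% to 71.6% in control libraries. Leaving out the female-restricted transcripts gave 7.42 points after withdrawal, and leaving out the 10 most abundant transcripts of each library gave 6.98 points.

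**Figure D5:**
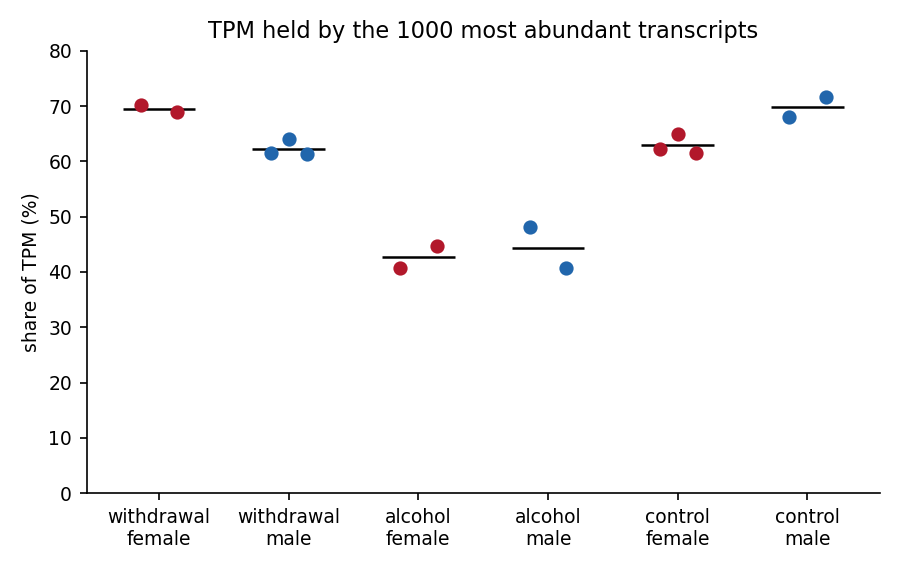
Share of TPM held by the 1000 most abundant transcripts in each of the 14 brain libraries (points; red female, blue male), with a line at each group mean. Withdrawal females, at 70.13% and 69.0%, lie above withdrawal males, at 61.3% to 64.1%, and controls show the reverse order.

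The most abundant transcript called higher in withdrawal females was ENSDART00000093613.3. It had 56589 and 54423 rescaled TPM in withdrawal females, against 23000.5, 31714 and 26796.5 in withdrawal males. In controls it had 24420 to 41316 in females, against 63646 and 80617 in males. The groups did not overlap in either exposure, in opposite order. The log2 difference was 1.04 after withdrawal (SE 0.39, limma adjusted p 0.0434) and −1.34 in controls. The withdrawal call was lost without rescaling (log2 difference 0.55, limma adjusted p 0.112). It was lost with a pseudocount of 0.1 (adjusted p 0.0623), with no level filter (0.241) and with the replicate block (0.104). It was also lost when any 1 of the 5 withdrawal libraries was left out, with limma adjusted p between 0.0608 and 0.219.

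The most abundant transcript called lower was ENSDART00000061007.3. It had 1920 and 2781 rescaled TPM in withdrawal females, against 5141, 4494 and 4746 in withdrawal males. In controls it had 2553, 2230.0 and 2416 in females, against 1109.7 and 1066 in males. The log2 difference was −1.05 after withdrawal (SE 0.16, limma adjusted p 0.000341) and 1.14 in controls. Another abundant transcript had 350 and 501 rescaled TPM in withdrawal females, against 2800, 2355 and 2799 in withdrawal males, with a log2 difference of −2.66 (SE 0.48, limma adjusted p 0.00107) and 2.31 in controls. For both, withdrawal females lay below withdrawal males in every library, and control females lay above control males.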

How the data were processed

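RNA was measured in 26 libraries, 14 of brain and 12 of liver. The library kit did not keep strand, per the labels' protocols. FastQC 0.11.7, STAR 2.5.2 (alignment to danRer10) and RSEM 1.3.1 (abundance) are named in the submitters' processing notes. The authors deposited TPM for 57918 Ensembl transcripts. Read numbers cannot be recovered from TPM, so depth and its precision are unknown, and a value of 0 can be a failed estimate.

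Sex and exposure were taken from the labels. TPM was divided by median-of-ratios size factors over the 28316 transcripts above 0 in all 14 brain libraries. These were 0.638 and 0.677 in withdrawal females, 0.892 to 0.946 in withdrawal males, 2.05 to 2.18 in alcohol brains and 0.599 to 0.897 in control brains. A limma 3.58.1 model (R 4.3.3) with a variance trend was fitted to log2(TPM + 1), with 6 group means. P-values were adjusted by Benjamini-Hochberg over the 29305 tested transcripts, and the script was tested on simulated data. Fold changes are on the log2(TPM + 1) scale. "Rescaled TPM" means after division and "TPM" as deposited. Plots used Python 3.11.15 and matplotlib 3.10.9.

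The transcripts singled out were the 5 with the largest change each way (at 20 TPM or more in the higher sex, groups not overlapping), the 4 most abundant called each way, the 3 each way at 0 in one sex, the 3 each way most opposite to controls and the 3 each way called alike in all exposures. A few of these are described, and their p-values come from the libraries that picked them, so they are not separate support. Members and lists were chosen with earlier results of these data known. Identical values in every brain library were shared by 85 tested transcripts with at least 1 other. Gene lists and marker genes were not used because no table paired transcripts with genes. Alternatives were other scalings, pseudocounts and filters, fewer libraries, a replicate block, and leaving out each library.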

Additional observations from a re-analysis of the deposited data

Results flagged for a closer look

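The sex difference itself differed between exposures, by the interaction contrasts of the limma fit. It differed between withdrawal and control brains for 18332 transcripts and between withdrawal and alcohol brains for 7584. Of the transcripts described above, the sex difference after withdrawal differed from that in controls, with limma adjusted p of 4.80e-06 for ENSDART00000147197.1, 6.36e-06 for the second transcript of its pattern, 9.03e-06 for ENSDART00000149844.1, 5.81e-07 for the further lower transcript, 5.12e-06 for the transcript at 319 and 26.1 rescaled TPM in withdrawal females, 0.00323 for ENSDART00000093613.3, 1.81e-05 for ENSDART00000061007.3 and 0.000115 for the other abundant lower transcript. For a transcript of low level that was lower in females in all 3 exposures, the limma adjusted p of the same interaction was 0.0219. It had 0 and 0.40 rescaled TPM in withdrawal females, against 4.17, 3.42 and 4.68 in withdrawal males, and 5.93, 5.76 and 7.17 in control females, against 14.5 and 18.7 in control males. All these transcripts were singled out on the same libraries, some of them by the size of this interaction. Several also passed the level filter through females or males alone, so these p-values are not separate support. Brain groups held 2 or 3 libraries, too few to look for single outlying libraries.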

How the results depend on the processing

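The count of transcripts called between withdrawal females and males was 15295, and ranged between 10045 and 14621 when 1 withdrawal library was left out. The interaction count against controls was 18332 (15909 to 18193 with 1 control or withdrawal library left out), and that against alcohol was 7584 (4455 to 8934 with 1 alcohol or withdrawal library left out). A fit with the replicate number as a replicate block called 13326, 16339 and 5572. Deviations of withdrawal female and male libraries from their group means correlated between −0.11 and 0.11. With only 2 female libraries their deviations mirror each other, so the range is symmetric by construction. The check therefore cannot show whether the numbers pair the libraries. Other scalings, pseudocounts, filters and smaller sets of libraries kept these 3 counts within 1.5 times. The filters also changed the number tested, so the share called depended on them. Between withdrawal females and males, 10982 of 17678 were called with a filter of 5 TPM in 2 withdrawal libraries. With any transcript above 0 in 1 withdrawal library, 15586 of 48162 were called. The 686 transcripts called as in the other exposures became 594 to 660 with 1 library left out, and the top-1000 share difference of 7.25 points became 6.67 to 8.14 points. The 199 transcripts listed at 0 in one sex became 613 at a limit of 1 TPM, 111 at 10 TPM, and 224 to 439 with 1 library left out. The 112 of 115 female-restricted transcripts became 63 of 66 with limits of 0.5 and 5 TPM (chosen after seeing the data). Leaving out 1 library could not change the 112, since the sexes overlapped for none of the 115. Of 28 single transcripts, 2 of the most abundant called higher changed sign under quantile normalisation, to −0.051 and −0.242 (limma adjusted p 0.827 and 0.178). Each of the 28 was read once in every other setting that tested it. Over these readings the call was kept 203 times, lost in the same direction 18 times, and the sign changed 2 times. Calls were also lost in the same direction with a withdrawal library left out, which can leave 1 female library. The cause of these losses was not tested. Summing per gene was not run, as no table paired transcripts with genes. Depth is unknown, so low levels could not be given an interval.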
